A study of Mus musculus with 8 samples.

Results

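The genes described here are the Fos family, Fos, Fosb, Fosl1 and Fosl2, examined in a Smad4 binding map of mouse CD4+ T cells; ChIP-seq, the method used, sequences the DNA that an antibody pulls down with a protein. All 4 family members were taken, of 21779 protein-coding genes, and each was given a window made of its RefSeq gene body on mm10 and 50 kb on both sides. The cells came from spleen and lymph nodes of C57BL/6 mice, were activated, and were held for 12 h with interleukin 6 (IL6) plus a TGF-β receptor (TGFbR) inhibitor. The WT group held 2 libraries, both labelled female. The KO group held 2 libraries of genotype CD4cre;Smad4fl/fl, in which Cre under Cd4 control removes a floxed Smad4 allele in T cells; KO replicate 1 pooled male and female cells, and KO replicate 2 was male. Sex and genotype were thus not separated, and WT is the only description the labels give of the control genotype, so Cre alone was not controlled as far as they tell. Nothing in the labels ties a replicate to its own animal, so the comparisons measure the spread between these libraries. That spread may be technical, although the KO libraries also differed in the sex of their cells. All groups had the cytokine and the inhibitor, and 4 input samples were not analysed here.

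Fos proteins are basic leucine zipper factors that do not pair with themselves and instead join a Jun protein to form AP-1. AP-1 is built up after T cell receptor stimulation and works with NFAT on cytokine genes. Fos and Fosb are immediate-early genes switched on by MAP kinase and calcium signals through SRF, ETS-type and CREB factors, whereas Fosl1 and Fosl2 encode Fra-1 and Fra-2, which lack the strong activation domain of Fos. Fra-2 is known as a regulator of Th17 cells. Smad4, the SMAD shared by TGF-β and BMP signalling, binds DNA at short GTCT or GC-rich elements, and SMAD complexes are known to cooperate with AP-1.

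Promoter sequences are shown for the members whose start lay under a Smad4 region, because that is where the data bear on sequence most directly. RefSeq promoters on GRCm38.p6, the assembly of mm10, matched 3 of the 4 members, Fos, Fosb and Fosl2; Fosl1 had no entry. The 250 bases before the transcription start are printed 5′ to 3′ along the gene. Capitals mark every match to the SMAD-type letters GTCT, CAGAC or GGCGC on either strand.
Fos promoter, chr12:85473640-85473889, plus strand: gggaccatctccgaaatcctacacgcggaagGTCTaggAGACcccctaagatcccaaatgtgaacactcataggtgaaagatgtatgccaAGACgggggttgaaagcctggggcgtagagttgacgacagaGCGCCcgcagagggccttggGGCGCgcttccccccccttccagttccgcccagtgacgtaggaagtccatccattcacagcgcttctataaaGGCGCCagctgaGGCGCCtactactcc
Fosb promoter, chr7:19310046-19310295, minus strand: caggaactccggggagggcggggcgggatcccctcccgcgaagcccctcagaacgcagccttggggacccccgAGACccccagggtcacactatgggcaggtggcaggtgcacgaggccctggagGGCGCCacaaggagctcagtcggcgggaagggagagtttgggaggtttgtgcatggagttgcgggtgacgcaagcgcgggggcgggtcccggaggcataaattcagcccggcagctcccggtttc
Fosl2 promoter, chr5:32136222-32136471, plus strand: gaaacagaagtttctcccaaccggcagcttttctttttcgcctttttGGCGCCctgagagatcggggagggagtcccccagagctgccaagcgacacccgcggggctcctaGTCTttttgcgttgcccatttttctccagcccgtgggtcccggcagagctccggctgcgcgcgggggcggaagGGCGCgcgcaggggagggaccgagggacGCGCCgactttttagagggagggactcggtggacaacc

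Fos, Fosb and Fosl2 each had a region over the transcription start that was called in both WT libraries and in neither KO library, and Fosl1 had one over the lower end of the gene. At Fos, WT replicate 1 had a peak of 1816 bp (chromosome 12, 85473194 to 85475009) and WT replicate 2 a peak of 1170 bp (85473216 to 85474385). Both covered the start, reaching from 696 and 674 bases before it to 1119 and 495 bases after it. The whole promoter window (250 bases before to 50 after the start, 300 bases) lay under both peaks.

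At Fosl2 the start lay at the edge of the peaks rather than in their middle. WT replicate 1 had a peak of 2222 bp (chromosome 5, 32134453 to 32136674), from 2019 bases before the start to 202 after it. The peak of WT replicate 2, 1568 bp wide (32134776 to 32136343), ended 129 bases before the start and covered 122 of the 300 bases of the promoter window.

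Fosb had the narrowest start region of the family. WT replicate 1 had a peak of 240 bp (chromosome 7, 19310081 to 19310320), the smallest width in its list, which ended 36 bases before the start of the RefSeq promoter entry (19310045). The gene body in the RefSeq gene table reaches 73 bases further, to 19310118, so this peak did meet the gene body. WT replicate 2 had a peak of 392 bp (19309973 to 19310364) that covered the start. The promoter window was covered over 215 and 300 of its 300 bases. Without the WT replicate 1 peak, which stood at the width floor, the region would rest on WT replicate 2 alone.

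At Fosl1 the peaks of 828 bp in WT replicate 1 (chromosome 19, 5447336 to 5448163) and 696 bp in WT replicate 2 (5447408 to 5448103) both covered the lower coordinate of the gene, 5447698. The tables used here give no strand for Fosl1, so its distances are counted from that coordinate, whose region is listed with the start regions below without being shown to be one.

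A promoter window met by peaks of both WT libraries and of no KO library was found in 26.8% of the 17469 protein-coding genes with a RefSeq promoter (4674 genes), and in all 3 members with an entry. A WT-only region meeting the gene body was found in 34.8% of the 21779 protein-coding genes and in all 4 members. A WT-only region here holds a peak of both WT lists that meet by at least 1 bp and meets no KO peak. By the summed width of the peaks in both WT libraries, the start regions spread widely among the 16501 regions shared by the WT lists. The Fosl2 region stood at percentile 97.8, the Fos region at 94.7 and the Fosl1 region at 72.1, while the Fosb region stood at 10.8.

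**Figure D1:**
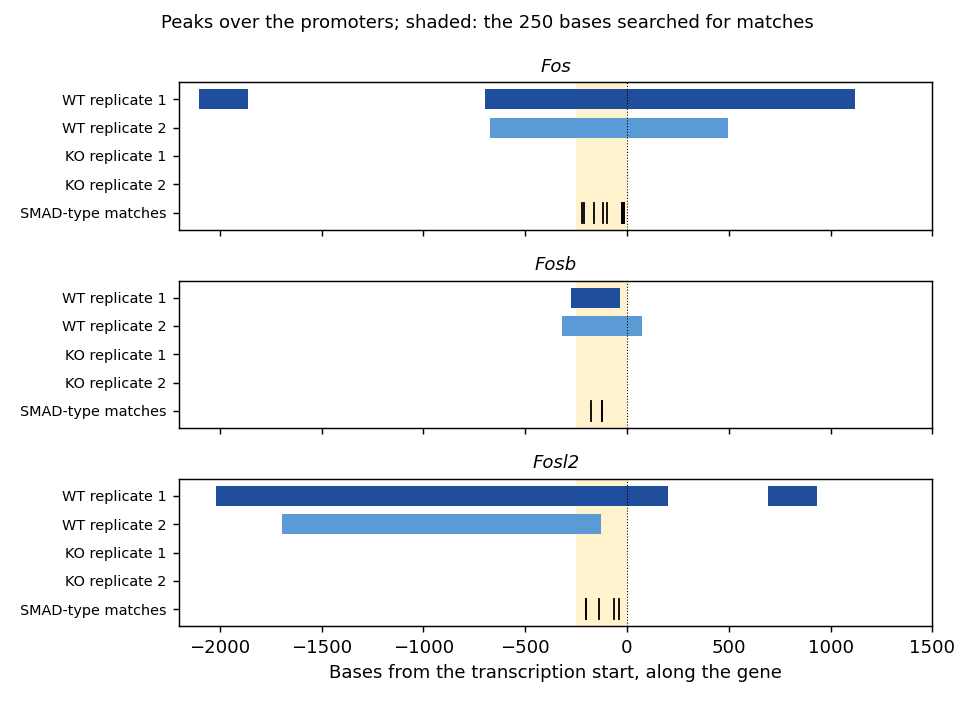
Peaks around the transcription start of Fos, Fosb and Fosl2, by library; the x axis is in bases along the gene, bars are peaks and black ticks are the first base of each SMAD-type match in the shaded 250 bases. The Fos peaks span the start in both WT libraries, the Fosl2 peaks lie mostly before it, the Fosb peaks are 240 and 392 bp wide, and the KO rows are empty.

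The Fos promoter held the most SMAD-type matches of the 3 sequences. It had 3 matches to GTCT, at 219 to 216, 212 to 209 and 160 to 157 bases before the start, and 6 matches to GGCGC. Of those 6, 4 formed a pair of palindromes, at 27 to 22 and 15 to 10 bases before the start, each counted on both strands. Fosl2 had 1 match to GTCT and 4 to GGCGC, and Fosb 1 and 2. The GGCGC matches of Fosb, at 125 to 120 bases before the start, were also a palindrome counted on both strands. So were those of Fosl2 at 203 to 198 bases before the start. CAGAC, which contains the reverse complement of GTCT, matched none of the 3. Such letters are common: of 21238 promoter windows of 250 bases from protein-coding genes, 81.6% held GTCT, 40.8% CAGAC and 40.6% GGCGC, and 91.0% held at least 1 of them.

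Letters of other factors were searched in the same windows on both strands. TGACG, the core of the cAMP response element that CREB binds, matched Fos at 129 to 125 and at 66 to 62 bases before the start and Fosb at 60 to 56 bases before it. Of all promoter windows 20.2% held TGACG, and Fosl2 did not. GGAAGT, an ETS-type site, matched once, in Fos at 59 to 54 bases before the start, and 20.4% of promoter windows held it. The AP-1 site TGAGTCA (4.06% of promoter windows), the STAT site TTCNNNGAA (6.57%) and the CArG box of SRF (1.39%) matched none of the 3. The search took only the 250 bases before each start. The Fos peaks reached further, to 696 and 674 bases before the start in WT replicates 1 and 2. Sequence beyond the 250 bases was not searched, so the peaks may still hold such letters there. The matches are a description of these letters and not of occupied sites.

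Across the 4 windows together, 44 and 36 peaks were called in WT replicates 1 and 2. KO replicate 1 had 1 peak, and KO replicate 2 had 0. Both WT libraries lay above both KO libraries. The mean was 40.0 ± 5.66 peaks in WT and 0.50 ± 0.707 in KO (SD, n = 2 each), a difference of 4.85 on the scale of log2(peaks + 1). A 2-sided exact permutation test over the libraries gave p = 0.333, the smallest that 2 against 2 allows. Peaks covered 30.7 and 21.6 kb of the windows in WT replicates 1 and 2 and 0.336 and 0 kb in KO replicates 1 and 2. The mean was 26.2 ± 6.41 kb in WT and 0.168 ± 0.238 kb in KO (SD, n = 2 each), a difference of 6.95 on the scale of log2(bp + 100), with the same exact permutation p = 0.333. This difference was 8.01 without KO replicate 1 and 5.89 without KO replicate 2, so its size rests on the single KO peak and the pseudocount.

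Both WT peak numbers lay above both KO numbers in 63.2% of the 21779 windows of protein-coding genes, and in all 4 members. Fos had 9 and 6 peaks in WT replicates 1 and 2, Fosb 15 and 15, Fosl1 11 and 9, and Fosl2 9 and 6. Neither KO library had a peak in the windows of Fos, Fosl1 and Fosl2. In all protein-coding genes, 5.26% of windows held a KO peak, so an empty KO window was the usual state.

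**Figure D2:**
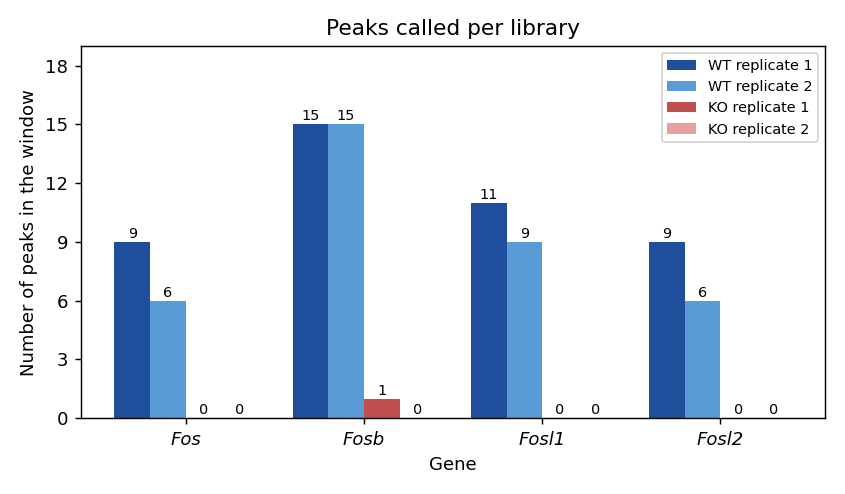
Number of peaks in the window of each gene, by library; bars start at 0 and carry their value. WT libraries had 6 to 15 peaks per gene, and the single KO peak lies in the Fosb window.

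Peak lists differed in size before any gene was considered. WT replicates 1 and 2 held 27120 and 19792 peaks in all, and KO replicates 1 and 2 held 564 and 424. Read depth is not in the files, so the part of depth in these numbers was not tested. The smallest width was 234 to 254 bp across the lists, and many peaks stood at it. Of the cell type markers examined with the same window, 5 of 5 T cell genes, 3 of 3 B cell genes, 1 of 3 myeloid genes and 1 of 2 natural killer genes had a WT-only region; a peak does not show expression, so these counts do not check the cell type.

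Counting regions rather than peaks, 34 regions in the 4 windows were called in both WT libraries and 33 of them were WT-only. Over the whole lists, 15882 of the 16501 regions shared by the WT libraries were WT-only, so this was the usual state of a shared region. Fosb had 12, Fosl1 9, Fos 6 and Fosl2 6. The median was 7.5 for the 4 genes and 1 for all protein-coding genes (interquartile range 0 to 3). At least 1 WT-only region was found in 61.8% of the windows of protein-coding genes; all 4 members had one. Windows with at least as many regions made up 0.675% of all for Fosb, 2.06% for Fosl1 and 7.36% for Fos or Fosl2.

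**Figure D3:**
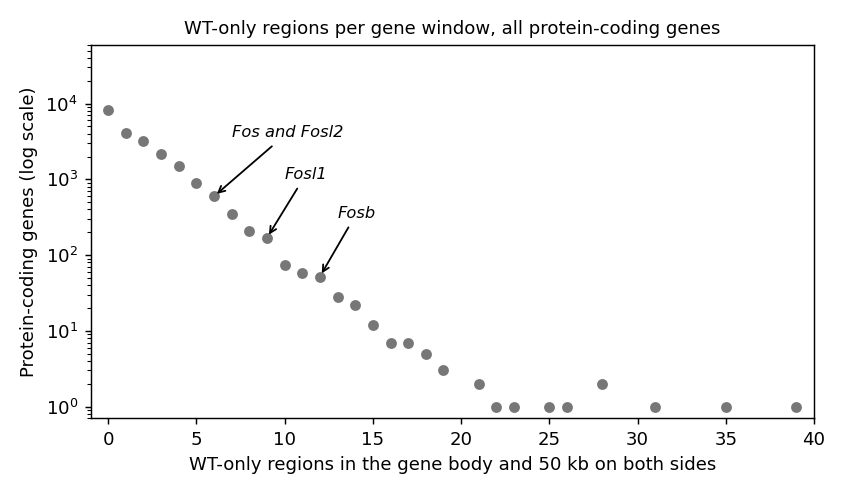
Number of protein-coding genes (y axis, log scale) by the number of WT-only regions in the gene body and 50 kb on both sides (x axis); each point is 1 count, and counts that no gene had are not drawn. Arrows mark Fos and Fosl2 at 6 regions, Fosl1 at 9 and Fosb at 12, in a distribution with a median of 1.

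The windows differ in what else they hold, and this bears on the order of the counts. No other protein-coding gene lay in the windows of Fos (103.4 kb) and Fosl2 (121.4 kb). The Fosb window (107.4 kb) held 7 others and the Fosl1 window (108.2 kb) held 11. When a region was counted only where its centre was nearer to the member than to any other protein-coding gene, Fos had 6 WT-only regions, Fosb 5, Fosl2 3 and Fosl1 1. The order was then led by Fos, and Fosl1, which stood next to Fosb in the full windows, came last. Protein-coding genes with at least as many nearest regions made up 1.57% for Fos, 2.35% for Fosb, 6.30% for Fosl2 and 34.6% for Fosl1. The last of these is the share of all genes with any nearest WT-only region. The nearest-gene count also depends on the neighbourhood, since a gene with few others around it competes for fewer regions. Fos, with no other protein-coding gene in its window, kept all 6, and Fosl2, also with none, kept 3.

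At Fos, all 4 distal regions before the start stood in a stretch without protein-coding genes. Their centres lay 18.6 kb (chromosome 12, 85454912 to 85455727), 26.7 kb (85446860 to 85447607), 29.1 kb (85444453 to 85445157) and 43.3 kb (85430229 to 85431004) before it. Distal enhancers before Fos are known from other cell types, but the positions of these regions were not compared with them. The peaks of these regions were 816, 748, 640 and 776 bp wide in WT replicate 1 and 604, 610, 632 and 610 bp in WT replicate 2. All 4 were thus of like width, and each was narrower than the start region in both libraries. A single region lay after the gene, 12.2 kb from the start (85485811 to 85486378; 566 and 498 bp). The region at 18.6 kb overlapped the non-coding gene Gm38543, and the region at 43.3 kb overlapped Gm29709 and Gm40477.

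Fosl2 carried a pair of wide regions side by side. Next to the start region lay a region whose centre was 3.32 kb before the start (chromosome 5, 32132310 to 32134001), called at 1692 bp in WT replicate 1 and 1086 bp in WT replicate 2, at percentile 93.3 by summed width. Another nearby region lay inside the gene, 3.44 kb after the start (32139629 to 32140188; 560 and 498 bp). With the start regions left aside, this was the only one of the 33 WT-only regions with its centre inside a family gene. The remaining 3 were far from the gene. Their centres lay 32.2 kb and 47.0 kb before the start, nearest to an end of Babam2, and 61.4 kb after the start, nearest to an end of Plb1.

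In the Fosb window, 5 WT-only regions had Fosb as the nearest gene. Besides the start region, 3 lay before the start, at 6.86 kb (chromosome 7, 19316567 to 19317250; 684 and 440 bp in WT replicates 1 and 2), 10.1 kb (19319852 to 19320387; 508 and 512 bp) and 11.6 kb (19321296 to 19321985; 690 and 496 bp). All 3 had wider peaks in both libraries than the start region. The fifth lay past the other end of the gene, 9.04 kb from the start (19300571 to 19301434; 632 and 694 bp), over the non-coding gene Gm26802.

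Other regions of the Fosb window belonged by position to its neighbours. The widest, 2266 and 1298 bp (19270488 to 19272763), covered an end of Vasp, which encodes an actin regulator, at percentile 97.2 by summed width. A region of 1396 and 796 bp (19344015 to 19345460) covered an end of Ercc1, a DNA repair gene, and a region near the window's edge covered ends of Cd3eap and Ppp1r13l. The single KO peak of the family's windows, 336 bp in KO replicate 1, fell inside Vasp in a region of 940 and 746 bp in WT replicates 1 and 2 (19265728 to 19266667). That region's centre lay 43.8 kb from the Fosb start, and KO replicate 2 had no peak in it.

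In the Fosl1 window, 8 of the 9 WT-only regions were nearer to another gene. The widest, with peaks of 1472 and 1766 bp (chromosome 19, 5487551 to 5489316), covered an end of Mus81, which encodes a DNA repair nuclease. Others covered ends of Cfl1, the cofilin gene, of Fibp, of Ccdc85b, and of Drap1 and AI837181. The Ccdc85b region lay 1.36 kb past the higher coordinate of Fosl1, and the Fibp region 4.65 kb past it.

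**Figure D4:**
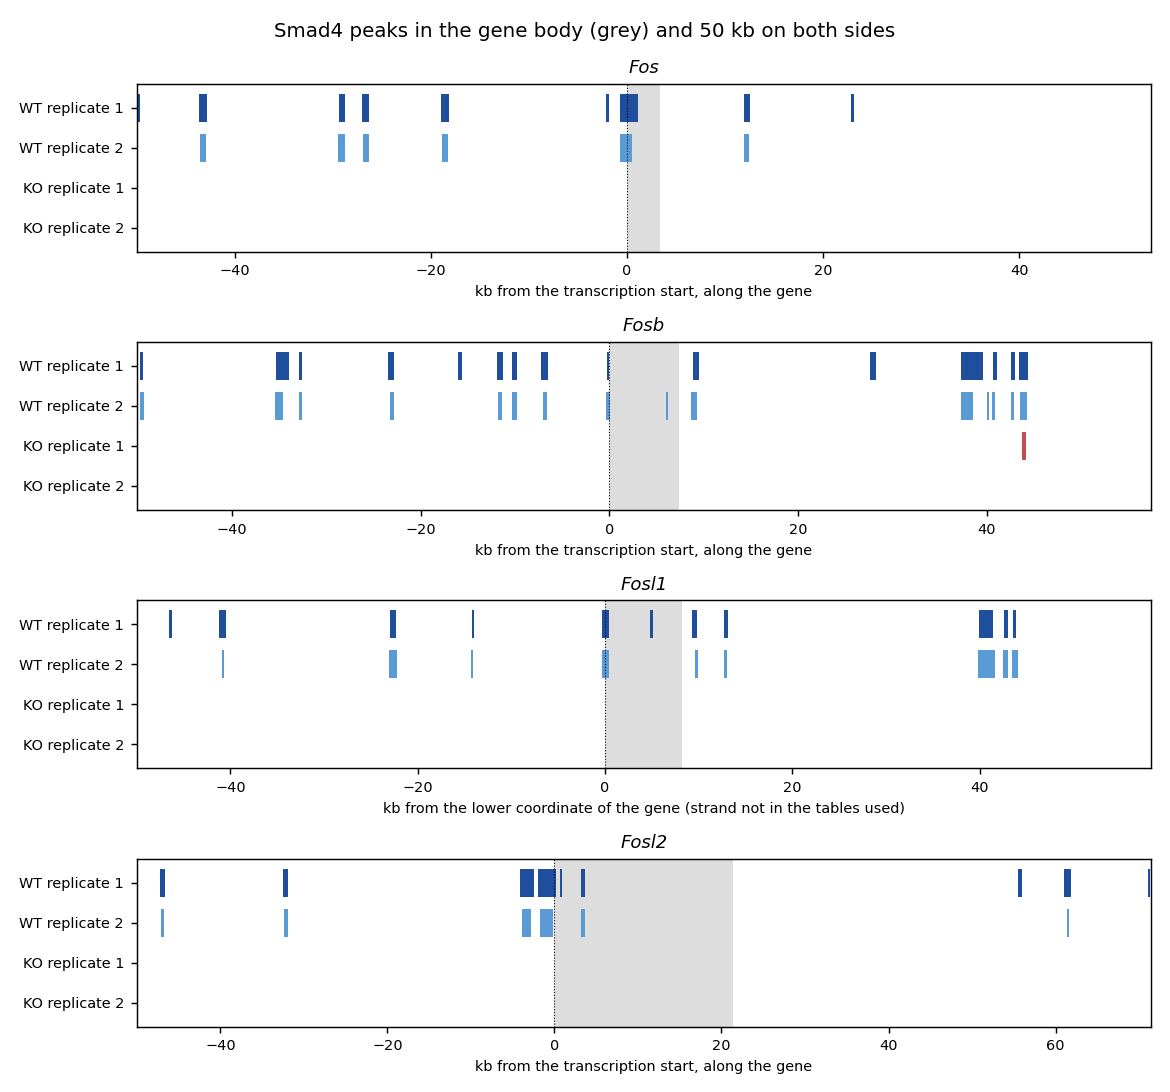
Peaks of each library (rows) in the 4 gene windows; the x axis is the distance in kb from the transcription start along the gene, or from the lower coordinate for Fosl1, bars are peaks to scale and grey marks the gene body. WT peaks lie at the starts of Fos, Fosb and Fosl2, at the lower coordinate of Fosl1 and on both sides of each gene, and 1 KO peak is seen, past the far end of Fosb.

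The WT libraries agreed on most peaks of the family's windows. Of the 36 peaks of WT replicate 2, 34 had a partner in WT replicate 1 (94.4%). In the other direction 34 of 44 did (77.3%). Over the whole lists these shares were 85.8% and 61.5%. Of the 10 peaks in WT replicate 1 alone, 5 stood at the smallest width of the list, as did both peaks in WT replicate 2 alone. Over the whole lists, shared peaks included, 5165 of 27120 peaks in WT replicate 1 and 3830 of 19792 in WT replicate 2 stood at it. The share among all unshared peaks was not computed. At Fos, all 3 unshared peaks stood at the smallest width, and 1 of them lay 1.98 kb before the start. Fosb was the only member with unshared peaks in WT replicate 2, and 1 of these lay inside the gene (19303787 to 19304028).

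Shared peaks lay close to each other. The centres of the overlapping peaks differed by a median of 44.0 bp over the 34 regions. The largest offset was 494 bp, at the Vasp end, followed by 350 bp at the Ercc1 end and 301 bp at the Fos start, all of them wide regions. At Fos the offset came from the side after the start, where the peak of WT replicate 1 reached 1119 bases and that of WT replicate 2 reached 495. At Fosl2 the start peaks were offset by 4 bp and the pair region by 8 bp.

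Peaks were wider in WT replicate 1 in 25 of the 34 regions, with medians of 652 and 505 bp in WT replicates 1 and 2. All 6 regions of Fos and all 6 of Fosl2 were wider in WT replicate 1, and 9 of 13 in the Fosb window. In the Fosl1 window it was 4 of 9. The share of all 16501 shared regions that were wider in WT replicate 1 was not computed. Whether these counts differ from the whole lists was thus not tested. All regions of a window come from the same pair of libraries and are not replicates, so these counts have no test.

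**Figure D5:**
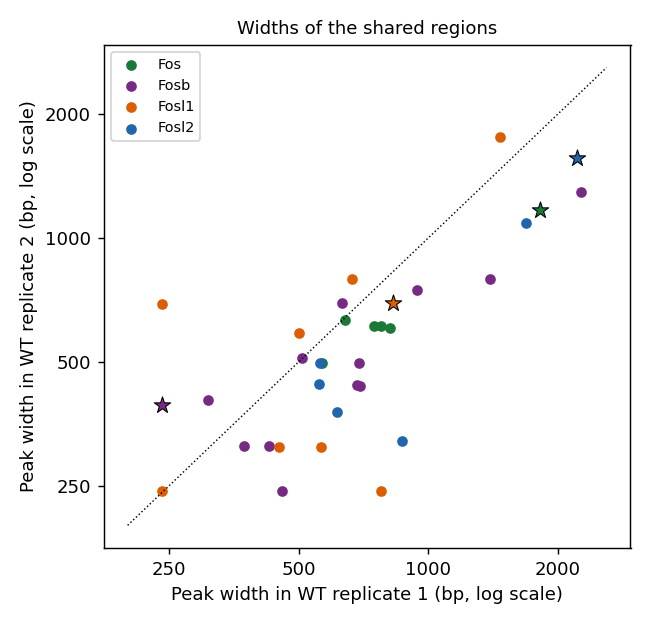
Width of the peaks in WT replicate 1 (x axis, bp, log scale) and WT replicate 2 (y axis, bp, log scale) for the 34 regions called in both, coloured by gene; stars mark the regions over a start (for Fosl1, over the lower coordinate) and the dotted line marks equal widths. Of the 34 points, 25 lie below the line, and the start regions run from 240 and 392 bp at Fosb to 2222 and 1568 bp at Fosl2.

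The partners of Fos proteins and the factors upstream of the Fos genes were described with the same window. All 15 AP-1 partner and related genes reported had a WT-only region, and of 19 upstream genes 18 did, against the 61.8% of all protein-coding genes. The median was 3 regions per gene in each list. Junb, which encodes a Jun protein that pairs with BATF in Th17 cells, had 8 WT-only regions. Jdp2, which encodes a repressor that dimerises with Jun, and the small Maf genes Maff and Mafg had 5 each. Among upstream genes, the ETS-type SRF partner gene Elk3 had 11 and Stat3, the factor activated by interleukin 6, had 9. Mapk7, a MAP kinase gene, had no peak in any library. A KO peak lay in the windows of 5 partner genes and 3 upstream genes, 8 of 34 in all, against 5.26% of protein-coding genes and 1 of the 4 Fos family genes.

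The genes most like each member by covered length in the 4 libraries were taken on other chromosomes, by Euclidean distance on the scale of log2(bp + 100). For Fos (6.08 and 4.12 kb in WT replicates 1 and 2, 0 in both KO) they were Rasa2 (distance 0.0277) and Fhl3 (0.0287). For Fosl2 (7.54 and 4.29 kb, 0 in both KO) they were Ncoa2 (0.0068) and Usp6nl (0.0328). For Fosl1 (6.36 and 5.64 kb, 0 in both KO) they were Prrg2 (0.0034) and Alad (0.0071). For Fosb, with 10.7 and 7.56 kb in WT and 0.336 kb in KO replicate 1, the nearest were Lcp1 (0.159) and Ccr1 (0.161). Both also had KO replicate 1 peaks, but that library enters the distance, so this trait follows from the measure. The measure rests on 4 libraries and on window totals, neighbouring genes included.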

How the data were processed

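Smad4 ChIP-seq peaks of 2 WT and 2 KO libraries were analysed. Each file was deposited by the authors as a peak list of chromosome, start and end on mm10, with no score, height or p-value, and per the submitters' processing notes Trim Galore, Bowtie and HOMER 4.8.3 were used, with no role given. How peaks were thresholded, whether inputs were used and how deep the libraries were is not given in the sources used here; 1 list per sample was deposited. Positions are printed 1-based.

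Gene bounds came from a RefSeq table on GRCm38.p6; outside chromosome Y, protein-coding genes that start under 3 Mb were dropped, as the table lists scaffold positions there. Peaks meeting by 1 bp were merged. Strand and starts came from RefSeq promoters. Group differences used a 2-sided exact permutation test over libraries; counts of regions were set beside all protein-coding genes. The counting steps were tested on simulated peaks. The named genes were the members, the gene ends nearest their regions, the 2 genes with the most regions (ties included) and those with none per list, and the 2 most like each member. Members and lists were chosen with earlier results of these data known. A planned stricter threshold by score was taken by width, and planned motif counts in distal regions were not made, since no genome sequence was used here. One gene of the partner list is not reported here. Python 3.11.15, numpy 2.4.6, pandas 2.3.3, SciPy 1.17.1 and matplotlib 3.10.9 were used.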

Additional observations from a re-analysis of the deposited data

How the results depend on the processing

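The family's windows held 33 WT-only regions, and 12 with a window of 10 kb and 5 in the gene bodies alone, since these settings take in less sequence. Counted by nearest gene there were 15, as regions nearer to another protein-coding gene did not count. Leaving out each library gave 33 to 43. The share of protein-coding genes with a WT-only region, 61.8%, was 58.8% with 50% of both WT peaks shared, 55.9% with centres within 100 bp, 44.3% and 71.3% with windows of 10 and 100 kb, 34.8% in gene bodies, 34.6% by nearest gene and 58.7% without peaks at the smallest width; leaving out each library gave 61.9% to 68.5%. Without WT replicate 1 or 2 the set rests on 1 list. The order of Fosb (12) and Fosl1 (9) turned with centres within 100 bp, to 7 and 8. Without peaks at the smallest width they had 10 and 6, and with 50% shared 11 and 6. Without WT replicate 2, Fos and Fosl2 had 9 each in place of 6. The WT excess in peak number and covered length had the same direction in every alternative run, at an exact permutation p of 0.333 or above. Its size is not firm, since it rests on the pseudocount and on 1 KO peak. On the log2 scales, peak number ran from 2.79 (gene bodies) to 5.54 (smaller pseudocount), and leaving out each library gave 4.35 to 5.35. Covered length ran from 4.56 (gene bodies) to 8.01 (without KO replicate 1), and was 5.89 without KO replicate 2. Pairing by replicate number (replicate block) gave the same differences, 4.85 and 6.95, with a sign-flip permutation p of 0.5, the smallest for 2 pairs; the labels do not say that numbers mark shared batches. The list of 34 partner and upstream genes had 33 genes with a region, and 27 to 34 over the alternatives. Read depth was unknown, so a gap between lists cannot be told apart from a gap in depth.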
